A study of Mus musculus with 2 samples.

Results

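Ighd-positive B cells were chosen by measured counts, as barcodes with at least 2 unique molecular identifiers (UMIs) of Ighd, the constant region of IgD, and at least 4 UMIs of Cd79a and Cd79b together, the signalling chains of the B cell receptor. At most 2 UMIs of Vpreb1, Igll1 and Dntt together were allowed, which mark B cell precursors, and S100a8 and S100a9 had to stay under 4% of the UMIs. The Mg-TAGelMA library held 684 such cells among 7523 kept barcodes and the Mg library held 1343 among 8319, 2027 of 15842 in all. These measured values chose the cells, so their Ighd and Cd79 levels are a description of the choice.

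The libraries came from mice with osteoporotic fractures whose femur carried an intramedullary nail, a rod in the marrow cavity, made of magnesium with TAGelMA in the Mg-TAGelMA group and of magnesium in the Mg group. GelMA is a gelatin methacryloyl hydrogel, and TA is not written out in the labels. Each library combined cells of the femoral marrow with cells that adhered to the implant, and there was 1 droplet library per nail. Strain, age, sex, time after implantation and the number of mice behind each library are not in the labels, so no replicate spread between mice could be measured, no test between the nails was possible, and all intervals given (95%, exact) cover counting error and nothing else.

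Newly formed B cells in the marrow carry surface IgM, pass through transitional stages marked by Cd93, and acquire IgD by alternative splicing of the same long heavy chain transcript, which needs the zinc finger protein Zfp318. Mature recirculating B cells return from the blood to the marrow. They carry IgD with IgM, the low-affinity IgE receptor CD23 (Fcer2a), the complement receptor CD21 (Cr2), the IgM Fc receptor (Fcmr) and much MHC class II, with which they present antigen to T cells.

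The median depth of the Ighd-positive cells was 4874 UMIs and 2056.5 detected genes in the Mg-TAGelMA library against 3357 UMIs and 1468 genes in the Mg library. Ighd reached 2 to 21 UMIs per cell with a median of 3 in the Mg-TAGelMA library, and 2 to 22 with a median of 4 in the Mg library. Ighm, the constant region of IgM, had a median of 8 UMIs per cell in the Mg-TAGelMA library against 15 in the Mg library, and exceeded Ighd in 81.3% of the cells in the Mg-TAGelMA library against 92.9% in the Mg library. Ighd lies at chr12:113406604-113416324 on the minus strand, Fcer2a at chr8:3681737-3694175 minus, Cr2 at chr1:195136811-195176716 minus and Fcmr at chr1:130865669-130880791 plus (GENCODE vM21, GRCm38).

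Ighd-positive B cells made up 9.09% of the kept barcodes in the Mg-TAGelMA library (Clopper-Pearson interval 8.45 to 9.76) and 16.1% in the Mg library (15.4 to 17.0). The share was 1.78-fold lower with the Mg-TAGelMA nail (1.62 to 1.95). Within the B lineage the gap was small: of the barcodes with at least 4 Cd79a and Cd79b UMIs, 32.4% were Ighd-positive in the Mg-TAGelMA library (30.4 to 34.5) and 36.3% in the Mg library (34.8 to 37.9), 1.12-fold lower (1.02 to 1.23). A cutoff in UMIs reads depth, and the Mg-TAGelMA library was the deeper of the 2, with a median of 6977 UMIs per kept barcode against 3844 in the Mg library. When each barcode was thinned to 1500 UMIs before the cells were chosen, 115 of 7258 barcodes qualified in the Mg-TAGelMA library (1.58%) and 623 of 7277 in the Mg library (8.56%). The Mg-TAGelMA share of kept barcodes was lower at every setting tried. Its ratio to the Mg share ran from 0.622 with no mitochondrial filter to 0.185 after thinning. Within Cd79-positive barcodes, another denominator, the ratio was 0.893. The S100a8 and S100a9 bound acted unequally on the 2 libraries. When it was tightened from 4% to 1%, 510 of the 684 Mg-TAGelMA cells stayed, against 1329 of the 1343 Mg cells. The ratio of the shares of kept barcodes was then 0.424. The share without this bound was not tested. The libraries were also counted with different releases of Cell Ranger, the counting software. The part of the counting in these shares was not tested.

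The label was checked on markers that the choice did not use. Comparison groups were precursor B cells (more than 2 UMIs of Vpreb1, Igll1 and Dntt; 145 cells in the Mg-TAGelMA and 310 in the Mg library), Ighd-zero B cells (0 Ighd, at least 2 Ighm and no Rag UMIs; 392 and 615 cells), and T cells with no Cd79 UMI, which gave the level that free RNA reaches. The order of the stages was the same in both libraries for Fcer2a. Its level, in CPM (the summed UMIs of a gene scaled to a common total), was 5.87 in precursors, 22.0 in Ighd-zero cells and 122.1 in Ighd-positive cells of the Mg-TAGelMA library, and 3.33, 32.8 and 264.2 CPM in the same order in the Mg library. Cr2 had 1.96, 6.33 and 53.0 CPM along these stages in the Mg-TAGelMA library and 3.01, 17.7 and 162.9 CPM in the Mg library. Each step upward lay outside the counting intervals of its neighbours in both libraries except the first Cr2 step of the Mg-TAGelMA library, where the interval of the precursors (0.635 to 4.56) overlapped that of the Ighd-zero cells (4.43 to 8.76). Fcmr had 16.03, 77.0 and 372.8 CPM along the stages in the Mg-TAGelMA library and 11.7, 237.4 and 614.9 CPM in the Mg library.

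**Figure D1:**
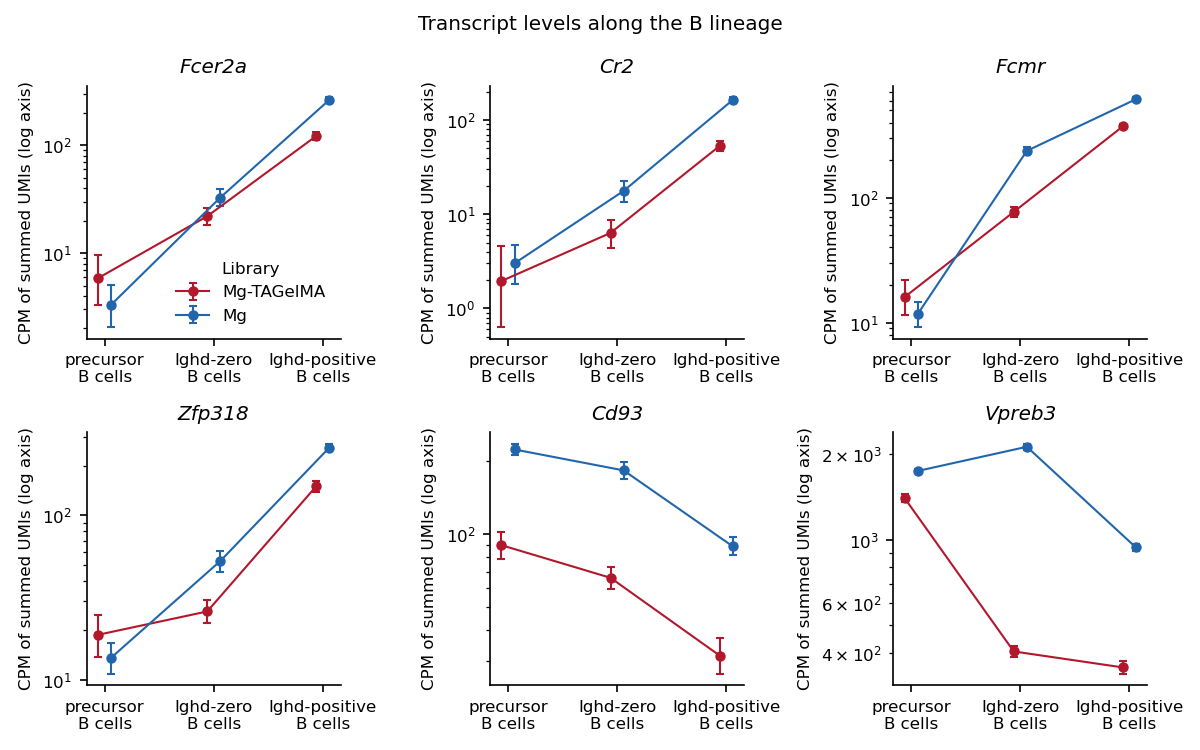
Level of 6 genes in CPM of summed UMIs (log axis) in precursor, Ighd-zero and Ighd-positive B cells of the Mg-TAGelMA library (red) and the Mg library (blue), with exact 95% counting intervals. Fcer2a, Cr2, Fcmr and Zfp318 were highest in Ighd-positive cells of both libraries, and Cd93 and Vpreb3 were lowest there.

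Single cells gave the same order. At least 1 Fcer2a UMI was found in 44.4% of the Ighd-positive cells of the Mg-TAGelMA library (interval 40.7 to 48.3), against 17.3% of its Ighd-zero cells and 1.05% of its T cells. In the Mg library it was found in 54.9% of the Ighd-positive cells (52.2 to 57.6), against 10.1% of the Ighd-zero cells and 2.74% of the T cells. Cr2 was found in 22.7% of the Ighd-positive cells of the Mg-TAGelMA library and 0.524% of its T cells, and in 41.0% and 0.608% in the Mg library. Fcmr was found in 78.8% and 3.66% in the Mg-TAGelMA library and in 80.2% and 2.74% in the Mg library. T cells were deeper than the Ighd-positive cells, with medians of 7288 UMIs in the Mg-TAGelMA library against 5468 in the Mg library, so the higher detection in Ighd-positive cells did not come with greater depth. With each cell thinned to 1500 UMIs, Fcer2a was found in 18.3% of Ighd-positive and 8.01% of Ighd-zero cells of the Mg-TAGelMA library, and in 34.1% and 5.71% in the Mg library. All 3 mature markers thus stood above free RNA in both libraries, though Fcer2a and Cr2 were each seen in only part of the cells.

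Zfp318, the factor needed to make the IgD splice form, followed the same course. It had 150.3 CPM in Ighd-positive and 26.02 CPM in Ighd-zero cells of the Mg-TAGelMA library, 5.77-fold higher, and 257.9 and 52.7 CPM in the Mg library, 4.89-fold higher. Among cells under 8000 UMIs the ratios were 2.47 and 3.91, and the gene was no longer called in both libraries. After thinning, 21.5% of the Ighd-positive and 9.30% of the Ighd-zero cells had a Zfp318 UMI in the Mg-TAGelMA library, and 36.2% and 11.4% in the Mg library.

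Markers of the immature stages ran the other way. Cd93, a surface protein of transitional cells, was detected in 66.2% of precursors, 38.8% of Ighd-zero cells and 11.7% of Ighd-positive cells in the Mg-TAGelMA library, and in 92.6%, 50.4% and 18.2% in the Mg library. Vpreb3, a chaperone of the pre-B cell receptor, was still found in 61.6% of the Ighd-positive cells of the Mg-TAGelMA library and in 72.5% of those of the Mg library, against 19.9% and 28.0% of the T cells of the same libraries. Rag1, a subunit of the recombinase, was found in 6.73% and 9.98% of the Ighd-positive cells. The cells chosen therefore held some with transcripts of earlier stages.

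The cutoff of 2 Ighd UMIs fell inside a gradient. In the Mg-TAGelMA library, Fcer2a was found in 26.2% of 397 otherwise similar cells with 1 Ighd UMI, just outside the cutoff, in 35.8% of the 240 cells with 2 UMIs, in 47.1% of those with 3 and in 50.5% of the 103 cells with 6 or more. In the Mg library the shares were 13.7% of 611 cells with 1 UMI, 33.1% of the 317 cells with 2, 54.2% with 3 and 68.0% of the 444 cells with 6 or more. Cd93 was found in 30.7% of the cells with 1 Ighd UMI, 15.8% with 2, 10.9% with 3, 5.39% with 4 to 5 and 13.6% with 6 or more in the Mg-TAGelMA library. In the Mg library it was found in 54.7%, 34.7%, 21.2%, 11.6% and 10.1% along the same steps. Cells with a single Ighd UMI were thus intermediate between Ighd-zero and Ighd-positive cells for Fcer2a in both libraries, though in the Mg library their interval (11.1 to 16.7) overlapped that of the Ighd-zero cells (7.82 to 12.7). For Cd93 the cells with a single Ighd UMI were at 30.7% (26.2 to 35.5) against 38.8% of the Ighd-zero cells (33.9 to 43.8) in the Mg-TAGelMA library, with overlapping intervals, and at 54.7% against 50.4% in the Mg library. The Ighd-zero cells had no Rag UMI by definition, while Rag1 was found in 24.4% and 39.9% of the cells with 1 Ighd UMI.

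**Figure D2:**
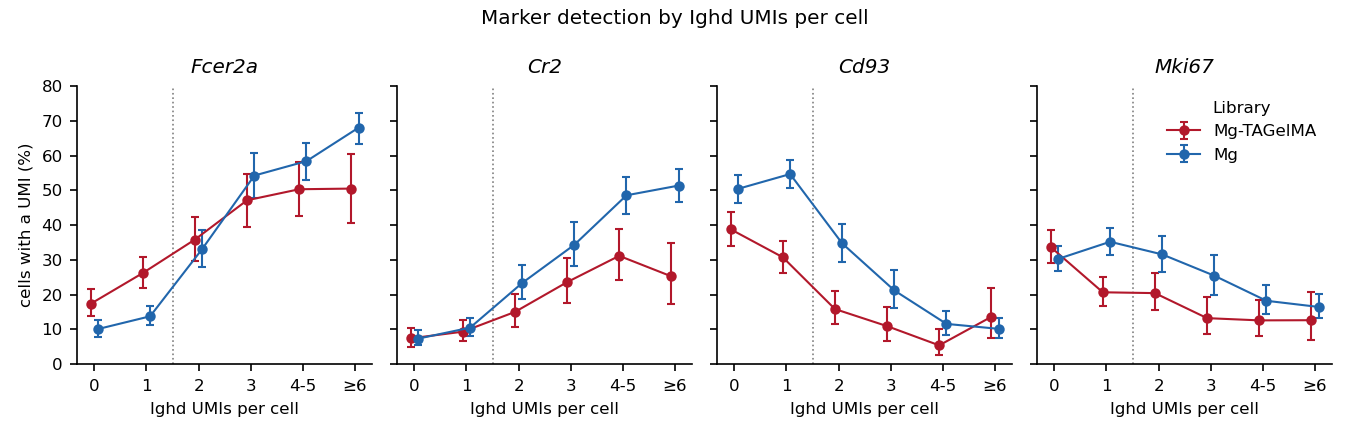
Share of cells with at least 1 UMI of Fcer2a, Cr2, Cd93 or Mki67 (%) by the number of Ighd UMIs in the cell, in the Mg-TAGelMA library (red) and the Mg library (blue), with Clopper-Pearson intervals. The dotted line is the cutoff of 2 UMIs: Fcer2a and Cr2 were higher and Cd93 lower to its right in both libraries.

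A small number of deep barcodes carried much of the RNA. Of the Ighd-positive cells, 88 in the Mg-TAGelMA library (12.9%) against 101 in the Mg library (7.52%) had at least 8000 UMIs, and they held 37.2% and 26.6% of all UMIs of the Ighd-positive cells. Mki67, a marker of cycling cells, was detected in 56.8% of these deep cells of the Mg-TAGelMA library and 80.2% of those of the Mg library, against 9.40% and 17.3% of the cells under 8000 UMIs. Cd93 was found in 38.6% and 71.3% of the deep cells, against 7.72% and 13.9% of the others. Fcer2a, a gene of mature cells, was instead less often seen in the deep cells, at 34.1% in the Mg-TAGelMA library against 26.7% in the Mg library, while the others had 46.0% and 57.2%, although depth favours detection. Doublet calls were 20 in the Mg-TAGelMA library against 46 in the Mg library, 2.92% and 3.43% of the Ighd-positive cells, and these cells were kept. Because the summed levels lean on the deep barcodes, the counts of genes and the leading genes are also given for cells under 8000 UMIs.

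Ighd-positive B cells were then compared with Ighd-zero B cells within each library, where both groups share the library and its processing. These ratios also ran with intron length: the median log2 ratio went from −0.35 for genes with under 2 kb of intron to 0.31 above 64 kb in the Mg-TAGelMA library (Spearman 0.30 across genes) and from −0.14 to 0.07 in the Mg library (0.16). A gene was called when the exact interval of its CPM ratio lay wholly beyond 2-fold and it reached 50 CPM in the higher group; the 11 genes of the cell definitions were left out. In the Mg-TAGelMA library 264 of 9130 measured genes were higher (2.89%) and 127 lower (1.39%), and in the Mg library 74 of 8496 were higher (0.871%) and 35 lower (0.412%). Called in both libraries were 54 genes higher (0.677% of 7980) and 12 lower (0.15%). Among cells under 8000 UMIs the Mg-TAGelMA library had 23 higher (0.267%) and 95 lower (1.1%), the Mg library 74 higher (0.89%) and 91 lower (1.09%), and 10 higher (0.131% of 7624) and 48 lower (0.63%) were shared by both. Of the 54 genes higher at all depths, 9 were also called under 8000 UMIs (16.7%), while all 54 had a log2 ratio above 0 in both libraries there. Of the 12 lower genes, 0 were called in cells under 8000 UMIs.

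Surface receptors of mature B cells were among the genes that were higher. Cr2, the complement receptor, was 8.37-fold higher in Ighd-positive cells of the Mg-TAGelMA library (5.88 to 12.2) and 9.22-fold higher in the Mg library (7.13 to 12.1), and under 8000 UMIs 3.10-fold and 8.33-fold. Fcer2a was 5.56-fold higher (4.57 to 6.80) in the Mg-TAGelMA library against 8.06-fold higher (6.67 to 9.83) in the Mg library, and under 8000 UMIs 1.87-fold and 6.08-fold, so it was no longer called in the Mg-TAGelMA library. Fcmr was 4.84-fold higher (4.36 to 5.39) and 2.59-fold higher (2.40 to 2.80). Cd55, which protects cells from complement, had 410.2 CPM in Ighd-positive and 91.2 CPM in Ighd-zero cells of the Mg-TAGelMA library, 4.50-fold higher, and 416.3 and 93.5 CPM in the Mg library, 4.45-fold higher. Under 8000 UMIs Fcmr was 1.84-fold and 2.16-fold higher and Cd55 1.75-fold and 3.76-fold, and neither was called in both libraries. Gpr183, an oxysterol receptor that positions B cells in follicles, was 4.19-fold and 5.36-fold higher, and 2.65-fold and 7.05-fold under 8000 UMIs. Cxcr5, the receptor that draws B cells into follicles, was 5.01-fold and 3.69-fold higher, and under 8000 UMIs, where it was not called in both, 1.74-fold and 3.41-fold.

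Of the 20 genes of the follicular maturation list, 8 were higher in both libraries (Fcer2a, Cr2, Fcmr, Cd55, Cxcr5, Gpr183, Zfp318 and Ltb, a lymphotoxin subunit) and 0 were lower. The median log2 ratio of the list was 1.84 in the Mg-TAGelMA library against 1.63 in the Mg library, beside −0.03 and −0.08 over all measured genes. Under 8000 UMIs the medians were 0.80 and 1.82, and 3 of the 20 were called in both. Pgap1, an enzyme that remodels the anchor of GPI-linked proteins, is on no list and was among the leading genes, at 229.8 CPM in Ighd-positive and 31.5 CPM in Ighd-zero cells of the Mg-TAGelMA library and 114.9 and 18.2 CPM in the Mg library. Under 8000 UMIs Pgap1 was 3.05-fold and 5.31-fold higher. Trim7, a ubiquitin ligase, was 4.53-fold and 6.13-fold higher, and under 8000 UMIs, where it was not called in both, 1.99-fold and 4.57-fold.

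**Figure D3:**
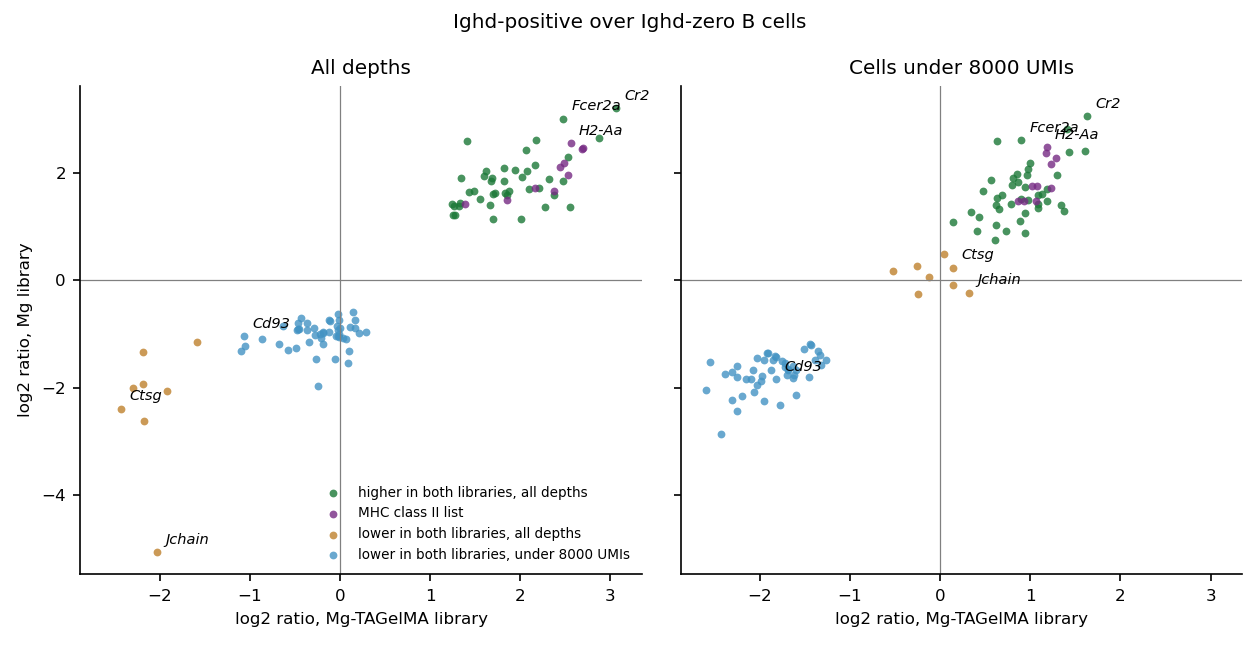
Log2 ratio of CPM in Ighd-positive over Ighd-zero B cells, in the Mg-TAGelMA library (horizontal) and the Mg library (vertical), for genes called in both libraries at all depths or under 8000 UMIs. MHC class II genes and Cr2 lay above 0 in both panels, while Jchain and Ctsg lay far below 0 in the left panel and near 0 in the right one.

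Antigen presentation genes were higher together. Of the 12 genes of the MHC class II list, 10 were higher in Ighd-positive than in Ighd-zero cells of both libraries and 0 were lower, with a median log2 ratio of 2.40 in the Mg-TAGelMA library against 1.84 in the Mg library. Over all measured genes 0.677% were higher in both, and the medians were −0.03 and −0.08. H2-Aa, the alpha chain of I-A, had 1679 CPM in Ighd-positive and 285.2 CPM in Ighd-zero cells of the Mg-TAGelMA library, 5.89-fold higher (5.58 to 6.21), and 2546 and 432.3 CPM in the Mg library, 5.89-fold higher (5.59 to 6.21). H2-Eb1, the beta chain of I-E, had 1520 and 236.3 CPM in the Mg-TAGelMA library and 1607 and 295.2 CPM in the Mg library. H2-Ab1, the beta chain of I-A, had 1316 and 235.2 CPM in the Mg-TAGelMA library and 1783 and 391.3 CPM in the Mg library. Cd74, the invariant chain that loads class II, was 4.49-fold and 3.29-fold higher, and Ciita, the coactivator of class II transcription, was 6.47-fold and 5.49-fold higher. Under 8000 UMIs the median log2 ratios of the list were 1.07 and 1.74, and 3 of the 12 genes were called in both libraries, H2-Aa at 2.27-fold and 5.59-fold, H2-Ab1 at 2.34-fold and 4.46-fold and H2-Eb1 at 2.43-fold and 4.88-fold.

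MHC class II promoters are known for a shared element, the Y box, whose core is CCAAT. RefSeq promoter windows (GRCm38.p6) were found for 7 of the 10 genes called higher in both libraries, and the letters CCAAT, searched on both strands in the 250 bases before the start, occurred in all 7. They occur in at least 1 window of 37.5% of the 27025 genes with a window, and a match is a description of the sequence, not a measured site. The last 100 bases before the start are shown for the 6 genes whose match lies in them, with CCAAT or its reverse complement ATTGG in capitals. The seventh, H2-DMa, has its match 198 bases before the start. The windows of H2-Aa (chr17:34287824-34287923, minus strand), H2-Eb1 (chr17:34305767-34305866, plus), H2-DMb1 (chr17:34153091-34153190, plus), H2-DMb2 (chr17:34145149-34145248, plus), H2-Oa (chr17:34092279-34092378, plus) and H2-Ob (chr17:34238805-34238904, plus) read 5′ to 3′ as follows.
H2-Aa: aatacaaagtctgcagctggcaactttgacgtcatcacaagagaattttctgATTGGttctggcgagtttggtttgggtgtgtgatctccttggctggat
H2-Eb1: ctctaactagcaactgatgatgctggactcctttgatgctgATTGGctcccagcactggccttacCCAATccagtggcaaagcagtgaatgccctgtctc
H2-DMb1: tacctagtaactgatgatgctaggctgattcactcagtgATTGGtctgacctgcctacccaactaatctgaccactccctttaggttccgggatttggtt
H2-DMb2: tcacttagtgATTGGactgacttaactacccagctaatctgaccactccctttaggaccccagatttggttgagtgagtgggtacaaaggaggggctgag
H2-Oa: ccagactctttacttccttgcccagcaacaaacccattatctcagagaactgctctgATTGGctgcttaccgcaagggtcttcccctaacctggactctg
H2-Ob: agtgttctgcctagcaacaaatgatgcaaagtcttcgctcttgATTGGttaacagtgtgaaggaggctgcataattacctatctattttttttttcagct
In 5 of these the first base of the match lay 43 to 61 bases before the start and in H2-DMb2 it lay 90 bases before it, and H2-Eb1 had a second match at 35 bases.

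Genes of immature cells were lower once the deep barcodes were left out. Under 8000 UMIs, Cd93 had 20.8 CPM in Ighd-positive and 73.7 CPM in Ighd-zero cells of the Mg-TAGelMA library, 3.54-fold lower, and 68.9 and 246.7 CPM in the Mg library, 3.58-fold lower. Vpreb3 had 323.1 and 1282 CPM in the Mg-TAGelMA library and 825.4 and 3009 CPM in the Mg library, 3.97-fold and 3.65-fold lower. Myb, a transcription factor of progenitor cells, was 4.19-fold and 4.23-fold lower, and Cd24a, the heat-stable antigen of immature B cells, was 2.71-fold and 2.31-fold lower. In these shallower cells 8 of the 9 measured genes of the immature and transitional list were lower in both libraries, with median log2 ratios of −1.89 and −1.65. With all depths 0 of the list were called in both, and the medians were −0.16 and −0.88.

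The 12 genes lower at all depths included 3 of the 7 measured immunoglobulin constant genes and several transcripts typical of other cells. Ighg2b, a switched heavy chain, was 55.9-fold lower in the Mg-TAGelMA library and 262-fold lower in the Mg one, Igha 7.44-fold and 23.5-fold lower, and Igkc 3.24-fold and 2.25-fold lower. Under 8000 UMIs none of these 3 was called in both libraries. Of all Ighg UMIs of Ighd-zero cells, the top 5 cells held 92.6% with the Mg-TAGelMA nail against 97.9% with the Mg nail. For Igha the top 5 held 84.5% against 96.8%. The Ighg and Igha levels of Ighd-zero cells at all depths thus came mostly from a few barcodes. Granule genes of early neutrophils were lower as well (Ctsg, Elane, Prtn3 and Mpo, with Ms4a3 and Slpi of the myeloid lineage and Car1 of red cells), and Jchain, the joining chain of secreted antibody, was 4.07-fold lower in the Mg-TAGelMA library against 33.2-fold lower in the Mg library. Among cells under 8000 UMIs the log2 ratio of Jchain was 0.32 in the Mg-TAGelMA library against −0.23 in the Mg library. Over 8 neutrophil markers, none at 0, the summed level was 4883 CPM in Ighd-positive and 7169 CPM in Ighd-zero cells of the Mg-TAGelMA library, and 1859 and 2189 CPM in the Mg library. Under 8000 UMIs these sums were 4650 and 4706 CPM, and 1712 and 1715 CPM, so the 2 groups differed little there. Ighd-zero cells with at least 20 Jchain UMIs numbered 14 in the Mg-TAGelMA library against 5 in the Mg library. The top 5 Ighd-zero cells held 54.9% of the Jchain UMIs of that group with the Mg-TAGelMA nail against 97.1% with the Mg nail.

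Other lists moved less at all depths. Of the B cell receptor co-receptors, Cr2 and Fcrl1 were higher in both libraries, of the receptor signalling genes only Bank1, an adaptor, was called, and of the transcription factors Mef2c and Zfp318. Under 8000 UMIs Fcrl1, Bank1, Mef2c and Zfp318 were not called in both, and 1 transcription factor was lower. At all depths no gene of the lists for BAFF and survival, activation, immediate early and stress genes, interferon response, proliferation, marginal zone, B1, germinal centre and age-associated cells was called in both libraries in either direction. Under 8000 UMIs 1 gene of these lists was, Bcl2l1, a survival factor, at 3.30-fold and 2.91-fold lower. Few genes of the last 3 lists could be measured: 3 of the B1 list, 1 of the germinal centre list and 1 of the age-associated list.

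The Ighd-positive cells also varied among themselves. Among those under 8000 UMIs, cells with an Fcer2a UMI (274 in the Mg-TAGelMA and 710 in the Mg library) were compared with cells without one (322 and 532), whose median depth was nearly the same. Cr2 was 1.67-fold higher in the Fcer2a-positive cells of the Mg-TAGelMA library (1.25 to 2.24) and 1.66-fold higher in those of the Mg library (1.44 to 1.91). Cd93 was 2.11-fold lower (1.18 to 3.96) and 3.40-fold lower (2.63 to 4.42). Vpreb3 was 2.17-fold and 2.46-fold lower, Cd24a 1.83-fold and 1.69-fold lower, and Ighm 1.29-fold and 1.28-fold lower. Detection of 1 mature marker therefore went with higher Cr2 and lower immature genes in the same cells, in both libraries. Mki67 was 2.39-fold lower in the Fcer2a-positive cells of the Mg library, while in the Mg-TAGelMA library it was 1.03-fold lower with an interval from 0.612 to 1.75 that included no difference.

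Light chain genes divided the cells further. Mouse B cells use mostly the kappa chain, with constant region Igkc, and less often a lambda chain, with constant regions Iglc1, Iglc2 and Iglc3. Of the cells with at least 5 light chain UMIs, lambda made up at least 50% of them in 56 of 684 cells of the Mg-TAGelMA library (8.19%, 6.24 to 10.5) and in 166 of 1330 cells of the Mg library (12.5%, 10.8 to 14.4). A bound of 25% gave 24.3% and 53.5%, and a bound of 80% gave 3.36% and 5.41%, so the share follows the bound. Most cells lay in a broad band of low lambda content, with medians of 14.3% of the light chain UMIs in the Mg-TAGelMA library against 25.96% in the Mg library, and a few lay near 100%.

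**Figure D4:**
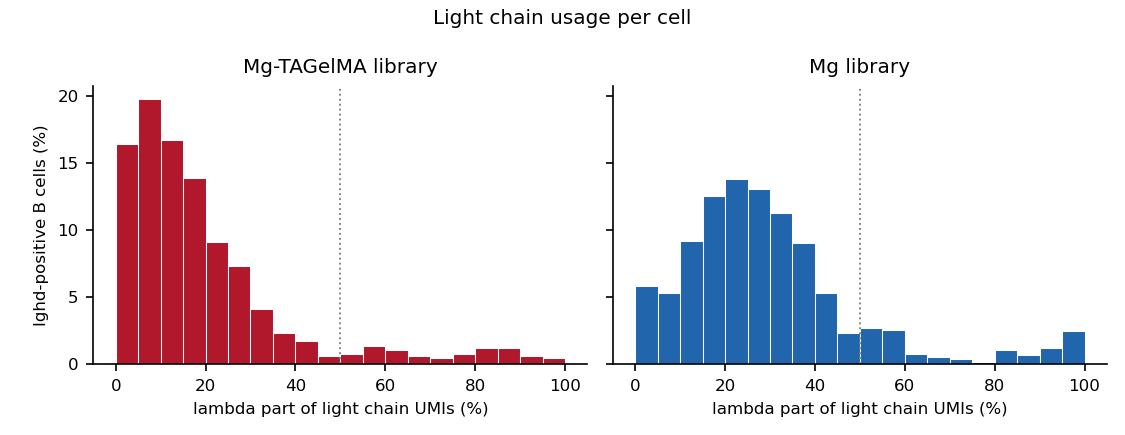
Histogram of the lambda part of light chain UMIs per Ighd-positive B cell (%), as a share of the cells (%), in the Mg-TAGelMA library (red) and the Mg library (blue). The dotted line is the 50% bound: 8.19% of the cells in the Mg-TAGelMA and 12.5% in the Mg library lay at or above it.

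Most cells with a majority of Igkc UMIs also held lambda UMIs. Among Ighd-positive cells below the 50% bound, Iglc2 was detected in 81.4% in the Mg-TAGelMA library against 88.1% in the Mg library, and Iglc3 in 65.8% and 85.6%. The matching Ighd-zero cells had Iglc2 in 55.0% and 49.9% and Iglc3 in 58.2% and 65.7%. T cells had Iglc2 in 12.0% and 16.1% and Iglc3 in 2.62% and 6.99%, so these lambda UMIs were more frequent in B cells than free RNA reached in T cells. The 2 genes are close copies. Of 314 aligned coding bases 11 differ (96.5% identical), and only 1 of the last 90 does, which are shown because the 3′ assay reads this end, with the base that differs in capitals (GENCODE vM21, GRCm38; Iglc2 at chr16:19198539-19198628 and Iglc3 at chr16:19065368-19065457, both on the minus strand, written 5′ to 3′).
Iglc2: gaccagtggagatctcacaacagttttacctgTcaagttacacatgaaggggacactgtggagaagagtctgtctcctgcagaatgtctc
Iglc3: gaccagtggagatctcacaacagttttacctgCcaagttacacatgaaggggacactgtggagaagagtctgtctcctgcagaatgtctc
Reads from this end could be split between the copies by the counting, so the levels of Iglc2 and Iglc3 are uncertain as single values.

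Switched isotypes were near the share that free RNA reached in T cells. An Ighg UMI was found in 49.7% of the Ighd-positive cells of the Mg-TAGelMA library, but also in 59.2% of its T cells, and in 4.69% of those of the Mg library, with 3.34% of its T cells. Igha was found in 56.3% and 67.0% of the Ighd-positive and T cells of the Mg-TAGelMA library and in 22.9% and 19.8% in the Mg library. Of the Ighg UMIs in Ighd-positive cells of the Mg-TAGelMA library 87.8% sat in 5 cells, 1 of which held 3880, while no cell of the Mg library held more than 4. Jchain was found in 42.5% of the Ighd-positive and 50.3% of the T cells of the Mg-TAGelMA library, and 2 Ighd-positive cells had 20 or more Jchain UMIs, with a maximum of 3142. Most Ighg UMIs of these cells thus sat in a few barcodes. Lists of rarer B cell types were measured in part. At 10 CPM or more in either library were 9 of 11 marginal zone, 3 of 6 B1, 5 of 10 germinal centre and 1 of 4 age-associated genes. Cd5 and Tbx21 were scarce in Ighd-positive cells. Cd5, carried by B1 cells and T cells, was found in 1.02% of those of the Mg-TAGelMA library and 0.819% of those of the Mg library, against 39.8% and 48.0% of T cells. Tbx21, a factor of age-associated B cells, was found in 1.02% and 0.223%, against 16.2% and 12.2% of T cells.

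The comparison between the nails asked how Ighd-positive cells differed in expression. Summed over cells, 816 of 9055 measured genes had higher levels with the Mg-TAGelMA nail (9.01%) and 120 lower ones (1.33%), and 834 of 8786 (9.49%) and 154 (1.75%) when cells under 8000 UMIs were used. The counts of the libraries came from different releases of Cell Ranger, 7.0.1 for Mg-TAGelMA and 5.0.0 for Mg, and the ratios ran with annotated intron length. The median log2 ratio was −0.46 for genes with under 2 kb of intron, −0.06 for 16 to 32 kb, 0.30 for 32 to 64 kb and 1.26 above 64 kb, with a Spearman correlation of 0.55 across genes, which are not independent replicates. The nail and the counting cannot be told apart here. With genes of at most 8 kb of intron scaled to their own total, 109 of 2969 were higher (3.67%) and 28 lower (0.943%). With CPM over all genes, 53 of 2448 such genes were higher (2.17%) and 74 lower (3.02%); the 2 scales differ by 0.41 in log2. Genes named below by rank come from those with at most 8 kb of intron.

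Short genes that were higher in the Mg-TAGelMA library included chemokines and induced genes. Ccl3 and Ccl4, chemokines of the CC family, had 96.2 CPM in the Mg-TAGelMA and 9.28 CPM in the Mg library, 10.4-fold higher (7.83 to 13.9), and 144.9 and 21.2 CPM, 6.83-fold higher (5.65 to 8.32). Under 8000 UMIs Ccl3 was 5.28-fold higher and no longer called, and Ccl4 was 3.09-fold higher. In the Mg-TAGelMA library Ccl3 was found in 19.0% of the Ighd-positive cells, 22.5% of the T cells and 39.1% of all kept barcodes, and Ccl4 in 31.4%, 38.2% and 47.6%. Both were thus found in a smaller share of Ighd-positive cells than of T cells, which were also the deeper cells. Whether this RNA was free or made by the cells was not tested. Plk2, a stress-induced kinase, was 7.21-fold higher (5.59 to 9.40), Pmaip1, a death-promoting BCL2 family member, 5.54-fold (4.25 to 7.30), and Bhlhe40, an activation-induced transcription factor, 4.29-fold (3.36 to 5.52). Mir142hg, the host transcript of a blood cell microRNA, had 504.6 CPM against 32.7 CPM, 15.5-fold higher (13.4 to 18.0), and Ifitm2, an antiviral membrane protein, 175.3 against 40.9 CPM, 4.28-fold higher. Both were called in the other cells too, with log2 ratios of 4.85 and 3.17 in T cells and 3.54 and 1.93 in Ighd-zero cells. Ccl3 and Ccl4 were called in Ighd-zero cells (log2 ratios 2.98 and 2.33) and Bhlhe40 in T cells (2.49). Ccl3 and Ccl4 in T cells, Bhlhe40 in Ighd-zero cells, and Plk2 and Pmaip1 in either were above 0 but not called. Jchain, Ctsg and Prtn3 also met the rule, at 34.7-fold, 4.77-fold and 4.16-fold; these are known as transcripts of plasma cells and early neutrophils. Of the Jchain UMIs in Ighd-positive cells of the Mg-TAGelMA library 92.2% sat in 5 cells, and under 8000 UMIs its ratio was 2.82. Under 8000 UMIs Ctsg and Prtn3 were no longer called, at log2 ratios of 0.57 and 0.58.

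Of the 15 measured genes of the activation and NF-kB list, 9 were higher with the Mg-TAGelMA nail and 0 lower. The median log2 ratio was 1.80, beside −0.02 over all genes, of which 9.01% were higher. With genes of at most 8 kb of intron on their own total, 5 of 10 were higher, beside 3.67% of all such genes, and the median was 2.09. Under 8000 UMIs 7 of 15 were higher, beside 9.49% of all genes, with a median of 1.63. Cd69, the early activation marker with 1.60 kb of intron, had 282.8 CPM in the Mg-TAGelMA library against 73.9 CPM in the Mg library, 3.83-fold higher (3.43 to 4.27). Tnfaip3, a deubiquitinase that restrains NF-kB (7.52 kb), had 102.8 and 27.5 CPM, 3.74-fold higher (3.12 to 4.49), and Nfkbid, a nuclear regulator of NF-kB (4.67 kb), had 88.9 and 32.3 CPM, 2.75-fold higher (2.31 to 3.28). Ccl3 (0.746 kb) and Ccl4 (1.44 kb), described above, were called too. The remaining called genes had longer introns, on which the ratios also depend. They were Cd83, an activation marker with 15.8 kb (8.07-fold), Nr4a1, a nuclear receptor induced by antigen receptor signals with 17.0 kb (7.01-fold), Rel, an NF-kB subunit with 26.7 kb (3.49-fold), and Cd86, a costimulatory ligand with 58.6 kb (26.8-fold). The list was also higher in other cells of the library. In Ighd-zero B cells 5 of 15 genes were called, with a median log2 ratio of 0.95, beside 566 of 9175 over all genes. In T cells 3 of 15 were called, with a median of 1.0, beside 747 of 9017.

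RefSeq promoter windows were found for 5 of the 9 activation genes. The NF-kB consensus was searched on both strands in the 250 bases before the start. It was matched in 3 of the 5, against 8.23% of all genes with a window. Genes of the NF-kB pathway were put on the list to begin with, so the share of all genes is no test of it. A match is a description of the sequence, not a measured site. The 250 bases before the start are shown for these 3, 5′ to 3′ with the matches in capitals, because they are the called genes of the list in which these letters occur (GRCm38.p6). They lie at chr7:30422156-30422405 (plus strand, 1 of 3 windows of Nfkbid), chr10:19015411-19015660 (minus, 1 of 2 windows of Tnfaip3) and chr11:23770970-23771219 (minus, Rel).
Nfkbid: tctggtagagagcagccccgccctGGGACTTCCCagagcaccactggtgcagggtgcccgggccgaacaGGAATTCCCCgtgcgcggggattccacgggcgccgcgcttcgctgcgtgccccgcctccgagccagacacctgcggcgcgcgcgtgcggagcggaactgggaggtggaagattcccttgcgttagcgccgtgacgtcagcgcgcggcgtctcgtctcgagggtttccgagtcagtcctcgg
Tnfaip3: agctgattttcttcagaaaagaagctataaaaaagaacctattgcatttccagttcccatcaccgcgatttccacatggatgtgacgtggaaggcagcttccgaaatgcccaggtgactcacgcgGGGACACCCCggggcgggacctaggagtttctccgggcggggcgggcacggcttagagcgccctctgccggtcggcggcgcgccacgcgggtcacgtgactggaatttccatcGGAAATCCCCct
Rel: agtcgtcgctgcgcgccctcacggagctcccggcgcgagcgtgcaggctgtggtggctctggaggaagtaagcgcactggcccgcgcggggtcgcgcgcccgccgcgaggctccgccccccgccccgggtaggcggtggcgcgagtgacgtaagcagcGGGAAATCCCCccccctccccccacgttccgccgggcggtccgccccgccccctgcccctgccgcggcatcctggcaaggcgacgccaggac
The nearest match to the start lay 181 bases before it in Nfkbid, 12 in Tnfaip3 and 91 in Rel, where 2 matches overlap.

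Immediate early and stress genes went the same way. Of 13 measured genes 6 were higher with the Mg-TAGelMA nail and 0 lower, with a median log2 ratio of 1.04. Under 8000 UMIs 4 of 13 were higher, with a median of 0.98. Over all genes 9.01% were higher, and 9.49% under 8000 UMIs. Fos, an AP-1 subunit, had 188.4 CPM in the Mg-TAGelMA library against 72.4 CPM in the Mg library, 2.60-fold higher (2.31 to 2.93). Ppp1r15a, a phosphatase subunit of the integrated stress response, had 126.1 and 43.3 CPM, 2.92-fold higher. Atf3, a stress-induced factor, was 4.63-fold higher and has 45.6 kb of intron, with which the ratios also ran. The list had a median of 0.55 in Ighd-zero cells, where 4 of 14 genes were called, and of 0.53 in T cells, where 0 of 13 were called. Over all measured genes 566 of 9175 were higher in Ighd-zero cells and 747 of 9017 in T cells.

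**Figure D5:**
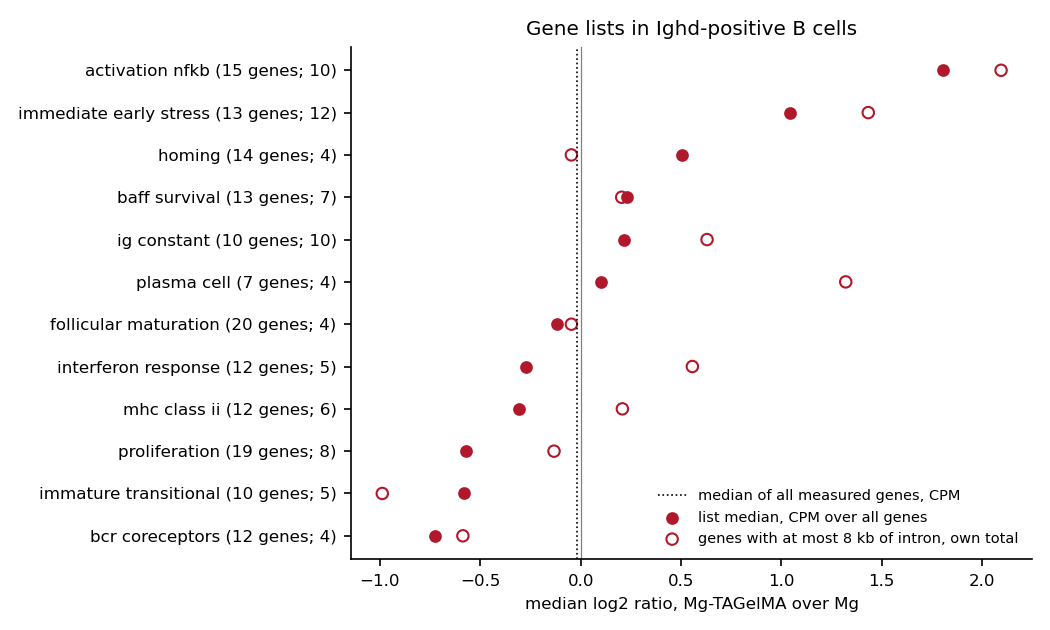
Median log2 ratio, Mg-TAGelMA over Mg, of 12 gene lists in Ighd-positive B cells, with CPM over all genes (filled) and with genes of at most 8 kb of intron on their own total (open); the genes measured on each scale are in parentheses and the dotted line is the median of all genes. Among these lists, drawn where at least 5 genes were measured and at least 4 on the second scale, the activation and immediate early lists lay highest on both scales, the B cell co-receptor and immature lists lay lowest, and the MHC class II, interferon and homing lists lay on opposite sides of 0.

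Some survival and trafficking receptors were lower in the Mg-TAGelMA library, while other genes of their lists were higher. The homing list had 5 higher and 2 lower of 14 genes, and the BAFF and survival list 2 and 2 of 13. Tnfrsf13c, the BAFF receptor on which mature B cells depend, had 83.1 CPM in the Mg-TAGelMA library against 283.2 CPM in the Mg library, 3.41-fold lower (3.05 to 3.82), and Tnfrsf13b, the related receptor TACI, was 2.89-fold lower. S1pr4, a sphingosine phosphate receptor, had 24.2 and 84.2 CPM, 3.49-fold lower (2.83 to 4.33). Siglecg, an inhibitory lectin of B cells, had 122.6 and 401.2 CPM, 3.27-fold lower (2.98 to 3.60), and Gimap1, a GTPase needed for lymphocyte survival, 59.8 and 223.7 CPM, 3.74-fold lower (3.28 to 4.28). Its neighbour Gimap7 was 4.2-fold lower, Trim56, a ubiquitin ligase of antiviral signalling, 5.25-fold lower (4.12 to 6.79), and Ffar1, a fatty acid receptor, 4.72-fold lower (3.60 to 6.27). B3gnt8, a glycosyltransferase, Rnase6, a secreted ribonuclease, and Clec2i, a C-type lectin, completed the 10 lowest, at 3.23-fold, 3.19-fold and 3.18-fold lower. Several were also called lower in Ighd-zero cells: Siglecg (log2 ratio −2.65), Trim56 (−2.39), Tnfrsf13c (−2.09), Rnase6 (−1.88) and Gimap1 (−1.61). The others of the 10 lowest were below 0 there but not called. In T cells Trim56 (−2.76) and Clec2i (−1.64) were called lower and the rest were not.

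The maturity markers Cr2, Fcer2a and Fcmr were lower in the Mg-TAGelMA library. Other genes of the follicular maturation list went both ways, with Tnfrsf13c, Ltb and Icosl called lower and Ccr7, Gpr183, Cd44 and Foxp1 called higher. The median log2 ratio of that list was −0.12. Cr2 was 3.08-fold lower (2.67 to 3.56) and called, Fcer2a 2.16-fold lower (1.96 to 2.39) and not called, and Fcmr 1.65-fold lower (1.56 to 1.75). Ighd, which the choice of cells used, had 546.5 CPM in the Mg-TAGelMA library against 1077 CPM in the Mg library. Scaling to the total of genes with at most 8 kb of intron adds 0.41 to every log2 ratio, which gave −1.21 for Cr2, −0.70 for Fcer2a and −0.31 for Fcmr. Cr2 has 31.8 kb of intron, Fcer2a 9.35 kb and Fcmr 13.4 kb, so they lie outside the genes that give this total. Of the immature and transitional list, Cd93 (2.83-fold), Vpreb3 (2.64-fold) and Spib were called lower, while Lef1 and Cecr2 were called higher. Of the 12 co-receptors 4 were lower and 0 higher, with a median log2 ratio of −0.73: Cr2, Siglecg, Cd22, an inhibitory lectin (2.78-fold), and Ms4a1, which encodes CD20 (516.6 CPM in the Mg-TAGelMA library against 1092 CPM in the Mg library, 2.11-fold). In Ighd-zero cells 7 of these 12 were lower, with a median of −1.495.

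Further lists held calls in both directions, to be read beside the 9.01% higher and 1.33% lower over all genes. Of 14 homing genes 5 were higher and 2 lower; Ccr7, the receptor for lymph node chemokines, was 3.08-fold higher and Cxcr4, the marrow retention receptor, had 327.3 CPM in the Mg-TAGelMA library against 141.5 CPM in the Mg library, 2.31-fold higher. Of 13 BAFF and survival genes 2 were higher and 2 lower, the lower ones both BAFF receptors. The higher ones were Bcl2l11, a death-promoting BCL2 relative (5.19-fold, 28.5 kb of intron), and Traf3 (93.4 kb). Of 23 transcription factors 7 were higher and 4 lower; the leading one, Bach2, had 2714 CPM against 347.6 CPM, 7.81-fold, and has 337 kb of intron. Of 16 receptor signalling genes 8 were higher and 1 lower, Ptpn6, a phosphatase (2.33-fold), and only 1 of the 16 had so little as 8 kb of intron and could be measured. Of 19 proliferation genes 2 were lower, Mki67 (2.85-fold, and 4.62-fold under 8000 UMIs) and Cenpf, a kinetochore protein (2.74-fold), and the median log2 ratio was −0.57. Of the 12 MHC class II genes 1 was lower, Ciita (2.71-fold), and 0 were higher, with a median of −0.30 that became 0.21 on the scale of the genes with little intron. Of 12 interferon response genes 0 were called in either direction. Of the 20 follicular genes 4 were higher and 4 lower, and of the 10 immature genes 2 were higher and 3 lower. Of 9 marginal zone genes 2 were higher, Cd9, a tetraspanin (32.5 kb of intron), and Notch2, the receptor of that fate (126 kb). Bcl6, the germinal centre repressor (17.1 kb of intron), was the 1 gene of 5 called on its list. Of the 3 B1 genes and the 1 age-associated gene measured 0 were called. Of 7 plasma cell genes only Jchain was called, and of 10 immunoglobulin constant genes 2 were higher and 2 lower.

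RNA of other cells differed between the libraries as well. In Ighd-positive cells the 8 neutrophil markers summed to 4883 CPM in the Mg-TAGelMA library against 1859 CPM in the Mg library, the monocyte and macrophage markers to 1237 and 895.5 CPM, and the erythroid markers to 2382 and 7832 CPM. The T and NK cell markers summed to 119.7 and 86.0 CPM and those of plasmacytoid dendritic cells to 29.0 and 24.5 CPM. Under 8000 UMIs the neutrophil sums were 4650 and 1712 CPM and the erythroid sums 447.9 and 3175 CPM. The part of this RNA in the differences between the nails was not tested.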

How the data were processed

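Single cells were profiled with Chromium 3′ v3 reagents, per the labels' protocols, in 1 library per nail. What was deposited is 1 matrix per library of unnormalized UMI counts for 32285 genes. Cell Ranger 7.0.1 (Mg-TAGelMA) and 5.0.0 (Mg) are named per the file headers, and STAR and mm10 per the submitters' processing notes. Whether intronic reads were counted is not given in the sources used here.

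Barcodes with at least 200 genes and at most 15% mitochondrial UMIs were kept, from 7591 in the Mg-TAGelMA and 9466 in the Mg library. The libraries shared 21 barcode sequences, of which 4 Ighd-positive cells in the Mg-TAGelMA and 1 in the Mg library carried one. Doublets called by scrublet (scanpy 1.11.5) in each library stayed in. The Ighd-positive cells held 1501 to 83302 UMIs each in the Mg-TAGelMA library.

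UMIs were summed over cells and scaled to CPM (Python 3.11.15, numpy 2.4.6, scipy 1.17.1, pandas 2.3.3). Ratios carry exact conditional binomial 95% intervals. A gene was measured at 10 CPM in either group, and called when its interval lay wholly outside 2-fold with at least 50 CPM in the higher group. A count of 0 was set to 3 counts. This describes 2 libraries, since cells are not replicates. Intron lengths came from GENCODE vM21 for 32235 of the genes (99.8%). The calling was also run on simulated counts in which known genes were changed. These were drawn with counting error only, so they cannot show how the calls fare with spread between cells.

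Named by rule were Fcer2a, Cr2, Fcmr and Ighd, then the 10 highest and 10 lowest called genes of each comparison, and up to 4 called genes of each list. Between the nails, ranking used genes with at most 8 kb of intron whose CPM in Ighd-positive cells was at least 25% of that over all kept barcodes. Immunoglobulin, haemoglobin, mitochondrial, ribosomal protein and histone genes and models without a symbol were not ranked. The members and gene lists were chosen with earlier results of these data known. Myb, Cd24a, Bcl2l1, Ighg2b and the genes of the Fcer2a split were named after their values were seen.

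Alternatives covered the cell filters, doublets, the Ighd and S100 bounds, thinning to 1500 UMIs, the denominator, scaling by TMM (edgeR 4.0.16) and median ratios (DESeq2 1.42.0, R 4.3.3), the total without Gm42418 and AY036118, intron length, the CPM and fold bounds and the lambda bound. The limit of 8000 UMIs and the lambda bound of 80% were chosen after seeing the data.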

Additional observations from a re-analysis of the deposited data

How the results depend on the processing

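No paired analysis was possible because each nail had 1 library. The ratio of shares was 0.622 with no mitochondrial filter, 0.479 with at least 3 Ighd UMIs, 0.424 with S100a8 and S100a9 under 1%, 0.185 after thinning and 0.893 within Cd79-positive barcodes. Between nails, higher and lower genes numbered 109 and 28 with at most 8 kb of intron, 1929 and 243 with no CPM minimum and 272 and 43 at 200 CPM, and 404 were lower at a 1.5-fold bound. Over Ighd-zero cells, 10 genes were higher in both libraries under 8000 UMIs, 17 with at most 8 kb of intron, 97 with no CPM minimum, 22 at 200 CPM and 117 at 1.5-fold, and 24 were lower with at least 3 Ighd UMIs, 48 under 8000 UMIs, 27 with no minimum and 50 at 1.5-fold. With at least 3 Ighd UMIs, and with thinning before the choice, Fcer2a was found in 49.1% and 20% of cells of the Mg-TAGelMA library and 61.6% and 39.0% of the Mg library, Cr2 in 26.8% and 6.96%, and 46.5% and 28.3%, and Fcmr in 83.1% and 50.4%, and 85.4% and 67.6%. The lambda share was 24.3% at a 25% bound and 3.36% at 80% in the Mg-TAGelMA library, and 53.5%, 5.41% and, after thinning, 15.2% in the Mg library.

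Medians between nails that changed sign when only genes with up to 8 kb of intron were used, where fewer genes were measured, became 0.21 for MHC class II, 0.56 for interferon response, −0.046 for homing, −1.10 for transcription factors and −0.25 for marginal zone genes. Over Ighd-zero cells, some genes called lower and some list medians changed sign when cells over 8000 UMIs were left out. The cause was not tested. Some medians near 0 crossed it under other settings. Under 8000 UMIs all 54 genes called higher in both libraries stayed above 0, as did the MHC class II and follicular medians. In the Mg-TAGelMA library the medians over Ighd-zero cells became −0.018 for receptor signalling, −0.44 for transcription factors and 0.10 for proliferation, and the log2 ratios became 0.14 for Ctsg, 0.32 for Jchain, 0.039 for Ms4a3 and 0.15 for Car1. In the Mg library they became 0.24 for Ctsg, 0.068 for Prtn3, 0.17 for Mpo, 0.50 for Ms4a3 and 0.26 for Slpi. Of the other values of main results 82 moved little. Of those of named genes 696 kept direction and call, 53 lost the call and 6 gained it, and of the list medians 334 moved little and 18 moved more. Depth and 1 library per nail limit every comparison.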
